A study of Mus musculus with 4 samples.

Results

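Mast cells, basophils and eosinophils are recognised by the proteins stored in their granules and by the high-affinity receptor for IgE. The 9 genes described here encode such effectors: Prg2, Prg3 and Epx (eosinophil granule proteins), Cpa3 (a mast cell protease), Mcpt8 and Prss34 (basophil proteases), Fcer1a and Ms4a2 (IgE receptor chains) and Gzmb (granzyme B). They were taken by gene symbol from a list chosen with earlier results of these data known, and all 9 were found among the 20207 genes measured. RNA was sequenced from LSK cells of Brpf1-null and wild-type mouse fetal livers at E14.5. LSK cells are the sorted fraction that lacks lineage markers and carries Sca-1 and Kit, and it holds stem cells and multipotent progenitors. The labels describe 2 Brpf1-null and 2 wild-type samples, each a pool of 4 embryos from which about 10000 cells gave the RNA. The tables of the 2 pairs of samples held the same value for every gene in both genotypes, and each genotype was therefore treated as a single library (n = 1). Whether these values come from pair 1, from pair 2 or from reads of both could not be told, and "library" stands for the deposited column of a genotype. The sources used here do not name the mouse strain, nor how and in which cells Brpf1 was deleted. With 1 library per genotype there is no replicate spread, so no p-value was computed, and each difference compares these 2 libraries.

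Eosinophils, basophils and mast cells develop from myeloid progenitors under transcription factors that include GATA1, GATA2 and members of the C/EBP family. Kit signalling sustains mast cells, and IL-3 and IL-5, whose receptors share the beta chain encoded by Csf2rb, drive basophils and eosinophils. When antigen links IgE on the alpha chain of the receptor, the beta and gamma chains pass the signal on and granules release proteases, peroxidase and cationic proteins. LSK cells lie upstream of these lineages, and the effectors are not among the genes that define them.

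The effectors were scarce in both libraries, and 6 of the 9 had a lower value in the Brpf1-null library, 3 of them through a listed 0 there. Of these, Epx and Ms4a2 had only about 3 and 2 reads in the wild-type library. The share of all genes with a lower value is not given here, so the count of 6 has no background beside it. Prg2 and Cpa3, the most abundant members in the wild-type library, were 2.71-fold and 2.64-fold lower. Mcpt8 was listed at 0 in the Brpf1-null library, and Prg3 was 8.46-fold lower on few reads. Prss34 went the other way and was 5.45-fold higher. Above 0 were 4 members in the Brpf1-null library and 7 in the wild-type library, and 2 members, Fcer1a and Gzmb, were listed at 0 in both. Of all 20207 genes, 13269 were above 0 in the Brpf1-null library and 13583 in the wild-type library. The values are RPKM, reads scaled by transcript length and by library size, so levels of different genes can be compared.

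**Figure D1:**
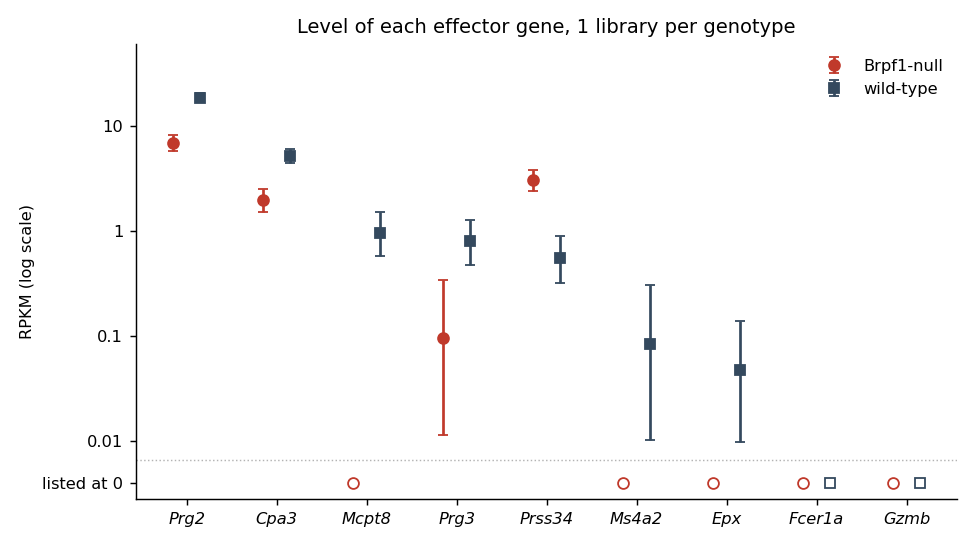
Level of each of the 9 effector genes in RPKM (log axis) in the Brpf1-null library (circles) and the wild-type library (squares). Bars are 95% Poisson intervals of the estimated reads and open symbols are values listed at 0; Prss34 is the member with the higher value in the Brpf1-null library, 3.03 RPKM, against 0.556 RPKM in the wild-type library.

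Of the libraries, the Brpf1-null one held about 22224716 reads and the wild-type one about 23645170, as recovered from the spacing of low RPKM values. Brpf1 itself was at 2.15 RPKM in the Brpf1-null library and 2.59 RPKM in the wild-type library, 1.20-fold lower with a counting interval of 1.00 to 1.44, and values per exon were not analysed here. The gate markers were present: Ly6a, which encodes Sca-1, was at 9.51 RPKM in the Brpf1-null library and 10.6 RPKM in the wild-type library, and Kit was at 21.3 RPKM in Brpf1-null and 25.6 RPKM in wild-type cells. Of 6 surface markers of the gate and of progenitors, 5 had a mean of at least 1 RPKM. Among these Cd34 was 1.54-fold higher (within 1.5-fold once the libraries were centred on their medians). The other 4 lay within 1.5-fold, among them Flt3 at 33.1 RPKM in Brpf1-null and 22.9 RPKM in wild-type cells and Cd48 at 74.7 RPKM in Brpf1-null and 99.4 RPKM in wild-type cells. Slamf1, under that mean, was 16.9-fold lower (4.36 to 145) at 0.0335 RPKM in Brpf1-null and 0.566 RPKM in wild-type cells. It rested on about 2 Brpf1-null and 36 wild-type reads. Markers of cells outside the gate differed widely. All 8 erythroid markers were lower, with a summed level of 94.4 RPKM in the Brpf1-null library and 639 RPKM in the wild-type library, and so were all 8 hepatocyte markers, at 398 RPKM in Brpf1-null and 1546 RPKM in wild-type cells. Like Prg2 and Cpa3, these markers had lower values in the Brpf1-null library, and with 1 difference per gene only a shared direction can be seen. The part of such cells in the levels of the members was not tested. In bulk RNA, fewer cells of a type and less RNA per cell cannot be told apart.

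Promoters of 4 members are printed because these genes went apart: Prg3 and Cpa3 were lower, Mcpt8 was listed at 0 in the Brpf1-null library and Prss34 was higher. Each run holds the 250 bases before the RefSeq start site (GRCm38.p6), 5′ to 3′ on the gene's strand. Capitals mark matches to the GATA factor motif, spelled AGATAA or TGATAA on either strand. RefSeq promoters were matched for 8 of the 9 members, and Prg2 is the one without an entry in the table used.
Prg3, chr2:84987965-84988214, plus strand: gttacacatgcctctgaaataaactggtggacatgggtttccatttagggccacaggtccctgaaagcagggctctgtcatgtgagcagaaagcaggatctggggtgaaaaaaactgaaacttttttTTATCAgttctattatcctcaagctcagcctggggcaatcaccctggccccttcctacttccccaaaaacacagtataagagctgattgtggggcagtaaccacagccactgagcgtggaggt
Cpa3, chr3:20242182-20242431, minus strand: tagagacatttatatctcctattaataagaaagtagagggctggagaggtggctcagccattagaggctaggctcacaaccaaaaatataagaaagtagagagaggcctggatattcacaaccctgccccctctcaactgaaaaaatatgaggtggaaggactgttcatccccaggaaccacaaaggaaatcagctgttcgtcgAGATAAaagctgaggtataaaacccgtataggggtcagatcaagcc
Prss34, chr17:25298144-25298393, plus strand: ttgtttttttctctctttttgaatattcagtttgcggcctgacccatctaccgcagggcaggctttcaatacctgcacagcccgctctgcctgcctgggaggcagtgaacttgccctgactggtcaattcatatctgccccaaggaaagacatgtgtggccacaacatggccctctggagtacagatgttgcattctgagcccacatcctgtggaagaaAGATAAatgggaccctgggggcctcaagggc
Mcpt8, chr14:56085198-56085447, minus strand: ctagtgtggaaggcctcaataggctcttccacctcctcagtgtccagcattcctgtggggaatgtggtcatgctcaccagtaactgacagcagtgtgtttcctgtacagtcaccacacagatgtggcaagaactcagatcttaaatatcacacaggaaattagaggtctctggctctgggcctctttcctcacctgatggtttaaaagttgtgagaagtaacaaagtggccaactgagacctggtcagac

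In the 300 bases searched for each gene, from 250 before to 50 after the start, the GATA letters occurred in 5 of the 8 members and in 18.6% of 32851 promoters of that length. The match of Cpa3 began at position −46 from the start site, that of Prss34 at position −31, and that of Prg3 at position −123 on the opposite strand. The lower Cpa3 and the higher Prss34 thus both carried these letters close to the start, and Mcpt8 carried none in the window. Ms4a2 held 3 matches and Fcer1a held 1. The core letters of the RUNX motif (TGTGGT, either strand) were found in 5 of the 8 members and in 16.8% of promoters. The C/EBP motif (TTGCNNAA, either strand) was found in 1 member, Fcer1a, and in 10.8% of promoters. Matches of different motifs overlapped in 0 places, and a match is a run of letters and not a measured site.

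The eosinophil granule genes were lower where enough reads allowed a statement, and other eosinophil genes, given below, went both ways. Prg2 encodes major basic protein, the cationic protein that forms the core of the eosinophil granule. It was at 6.82 RPKM in the Brpf1-null library (5.68 to 8.11), against 18.5 RPKM in the wild-type library (16.7 to 20.5). The brackets give 95% Poisson intervals of about 127 Brpf1-null and 367 wild-type reads, which were estimated from transcript length and library size. The fold of 2.71 had a 95% Clopper-Pearson interval of 2.21 to 3.35, so the difference exceeded counting error. Such intervals cover counting error only, and copies of a molecule made by PCR are not independent reads. Prg2 held 57.2% of the members' summed RPKM in the Brpf1-null library and 70.8% in the wild-type library. It was the member with the highest level in both.

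Prg3 encodes a homolog of major basic protein and is the next gene to Prg2 on chromosome 2. It was at 0.0948 RPKM in the Brpf1-null library (0.0115 to 0.343), against 0.802 RPKM in the wild-type library (0.475 to 1.27), from about 2 Brpf1-null and 18 wild-type reads. Its fold of 8.46 lower had an interval of 2.03 to 75.2, so its size is poorly fixed. The ratio of Prg2 to Prg3 was 71.9 in the Brpf1-null library and 23.1 in the wild-type library, and the first over the second was 3.11 (0.728 to 28.0). Unequal change of these neighbours was therefore not detectable at this depth. Neighbours of the pair went both ways: Slc43a3, on the other side of Prg2, was at 21.1 RPKM in the Brpf1-null library and 19.1 RPKM in the wild-type library. Directly beyond Prg3, P2rx3 was at 0.129 RPKM in Brpf1-null and 0.394 RPKM in wild-type cells, and the next gene, Ssrp1, was at 117 RPKM in Brpf1-null and 78.7 RPKM in wild-type cells. Epx encodes eosinophil peroxidase, a granule enzyme that makes hypohalous acids. It was listed at 0 in the Brpf1-null library and at 0.0471 RPKM in the wild-type library, from about 3 reads, and a difference was not detectable at this depth.

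The mast cell gene was lower by about as much as Prg2. Cpa3 encodes mast cell carboxypeptidase A, a metalloprotease held on the proteoglycan of the granule. It was at 1.97 RPKM in the Brpf1-null library (1.503 to 2.503), against 5.19 RPKM in the wild-type library (4.46 to 6.02), from about 63 Brpf1-null and 178 wild-type reads. The fold of 2.64 lower had an interval of 1.98 to 3.60. The ratio of Prg2 to Cpa3 was 3.47 in the Brpf1-null library and 3.57 in the wild-type library, and the first over the second was 0.972 (0.680 to 1.42). A ratio taken within a library does not depend on how the libraries were scaled to each other.

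Of the basophil proteases, Prss34 was higher and Mcpt8 was listed at 0 in the Brpf1-null library. Prss34, whose promoter is printed above with GATA letters near the start, encodes a tryptase-like serine protease of basophils, also called mast cell protease 11. It was at 3.03 RPKM in the Brpf1-null library (2.41 to 3.75), against 0.556 RPKM in the wild-type library (0.317 to 0.901), from about 82 Brpf1-null and 16 wild-type reads. The fold of 5.45 higher had an interval of 3.17 to 9.98. Relative to Prg2, Prss34 was at 0.445 in the Brpf1-null library and 0.0300 in the wild-type library, 14.8-fold higher (8.19 to 28.0), and relative to Cpa3 it was at 1.54 in the Brpf1-null library and 0.107 in the wild-type library, 14.4-fold higher (7.65 to 28.3). These ratios are free of scaling, and both intervals lie above 1. Prss34 made up 25.5% of the members' summed RPKM in the Brpf1-null library and 2.13% in the wild-type library.

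Mcpt8 encodes mast cell protease 8, a granule protease that marks basophils in the mouse in spite of its name. It was listed at 0 in the Brpf1-null library and at 0.957 RPKM in the wild-type library (0.579 to 1.501), from about 19 reads. In the Brpf1-null library 3 reads of Mcpt8 would be worth 0.161 RPKM. No fold is given, because a listed 0 may be a failed estimate. Of 92 genes whose symbols begin with Rpl or Rps and a digit, 1 was listed at 0 in the Brpf1-null library and 2 in the wild-type library. These symbols were not limited to ribosomal proteins that every cell uses, so they do not settle whether estimates failed. In the wild-type library the interval of Mcpt8 overlapped that of Prss34.

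The IgE receptor chains were at the limit of detection. Fcer1a encodes the alpha chain that binds IgE and was listed at 0 in both libraries, where 3 reads would be worth 0.135 RPKM in the Brpf1-null library and 0.127 RPKM in the wild-type library. Ms4a2 encodes the beta chain, which amplifies the signal. It was listed at 0 in the Brpf1-null library and at 0.0837 RPKM in the wild-type library, from about 2 reads, so a difference was not detectable at this depth. Gzmb encodes granzyme B, a protease of cytotoxic lymphocytes that is also made by some mast cells and basophils. It was listed at 0 in both libraries, and 3 reads would be worth 0.0940 RPKM in the Brpf1-null library and 0.0884 RPKM in the wild-type library.

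The order of levels differed between the libraries. In the Brpf1-null library Prg2 led and Prss34 and Cpa3 followed with intervals that overlap, and Prg3 was the lowest of those above 0. In the wild-type library Prg2 led, Cpa3 followed, and Mcpt8, Prg3 and Prss34 came next with overlapping intervals, ahead of Ms4a2 and Epx on a few reads each. The summed level of the 9 was 11.9 RPKM in the Brpf1-null library and 26.1 RPKM in the wild-type library, from about 274 Brpf1-null and 603 wild-type reads. Among all genes, 4834 were at or above Prg2 in the Brpf1-null library and 2472 in the wild-type library. For Prss34 those numbers were 6908 in the Brpf1-null library and 10306 in the wild-type library.

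Set against all genes, changes as large as those of Prg2, Cpa3 and Prss34 were uncommon but not rare. Counts of genes past 1.5-fold were made on a log2 scale after 1 RPKM was added to both values, log2((Brpf1-null RPKM + 1)/(wild-type RPKM + 1)). Changes of genes with low values come out too small on it. With a mean of at least 1 RPKM, 3 members were kept of 9380 genes, and 2 of them, Prg2 and Cpa3, were lower, where 9.42% of all kept genes were. Prss34 alone was higher, where 14.1% of kept genes were. Prss34 passed the filter only through its Brpf1-null value of 3.03 RPKM, since its wild-type value, 0.556 RPKM, lay under 1 RPKM. Its count and its rank among the kept genes therefore rest on a filter that it met through its own rise. Without the filter, 4 of the 9 members were lower (Prg2, Cpa3, Mcpt8 and Prg3), where 5.34% of all 20207 genes were, and 1 was higher, where 7.12% were. Mcpt8 is counted there through its listed 0, which may be a failed estimate. The members were chosen with earlier results of these data known, so the shares of all genes are background and do not test the list. The other 4 members, all with at most 3 reads in either library, lay within 1.5-fold on this scale. Over all 9 members the median log2 change was −0.12, which is the value of Ms4a2 on about 2 reads. It was 0.0 over all 20207 genes and 0.04 over the kept genes. Among the kept genes 180 were lower by at least as much as Prg2 (log2 change −1.32), 294 by at least as much as Cpa3 (−1.06), and 102 were higher by at least as much as Prss34 (1.37).

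**Figure D2:**
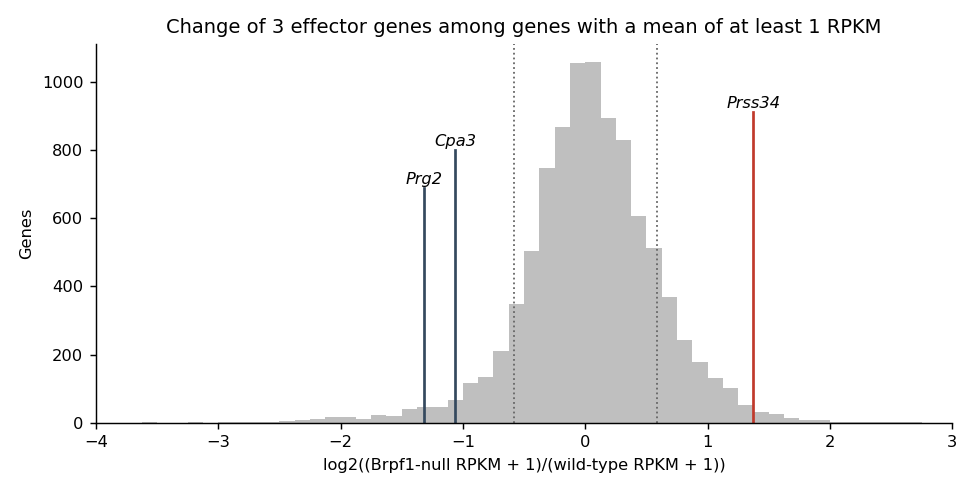
Number of genes (y axis) by log2((Brpf1-null RPKM + 1)/(wild-type RPKM + 1)) (x axis) for the 9380 genes whose mean reached 1 RPKM, with dotted lines at 1.5-fold. Lines of arbitrary height mark the 3 members kept: Prg2 and Cpa3 lie in the lower tail at −1.32 and −1.06, and Prss34 in the upper tail at 1.37.

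Several of the genes beside the members on their chromosomes were listed at 0, and others were well expressed. Next to Mcpt8 lies Ctsg, which encodes cathepsin G of neutrophil granules, at 7.81 RPKM in the Brpf1-null library and 5.02 RPKM in the wild-type library. Of the 13 other genes of the chymase locus, which also holds Mcpt8 and Gzmb, 11 were listed at 0 in both libraries, Cma1 among them, and Mcpt2 was listed at 0 in the Brpf1-null library and at 0.131 RPKM in the wild-type library. On one side of Prss34 lie the proteases Prss28, Prss29 and Tpsb2, all listed at 0 in both libraries. Gyg, beside Cpa3, was at 40.4 RPKM in Brpf1-null and 50.6 RPKM in wild-type cells. Ms4a3, beside Ms4a2, encodes a protein of granulocyte progenitors and was at 6.85 RPKM in Brpf1-null and 8.23 RPKM in wild-type cells. Epx lies near Mpo, which encodes the myeloperoxidase of neutrophils and was at 570 RPKM in Brpf1-null and 351 RPKM in wild-type cells.

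Most other proteases of mature mast cells were not detected. Of 16 mast cell protease and granule genes, 9 were listed at 0 in both libraries, Tpsb2, Tpsab1, Mcpt4 and Cma1 among them. Of the 5 kept, 1 was higher, 1 lower and 3 within 1.5-fold, with a median log2 change of −0.36, where the median over all kept genes was 0.04. Hdc, which encodes the enzyme that makes histamine, was 2.07-fold higher at 2.46 RPKM in the Brpf1-null library and 1.19 RPKM in the wild-type library. It lay within 1.5-fold once each library was centred on its median. Slc18a2, the vesicular transporter that loads histamine and other amines, was 1.85-fold lower at 3.28 RPKM in Brpf1-null and 6.06 RPKM in wild-type cells. Srgn, the proteoglycan core that holds granule proteases, was at 115 RPKM in Brpf1-null and 170 RPKM in wild-type cells, and Cd63, a membrane protein of granules, at 51.0 RPKM in Brpf1-null and 65.6 RPKM in wild-type cells, both within 1.5-fold. Srgn passed 1.5-fold lower after centring, and Cd63 did so after removal of the GC trend.

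Other eosinophil genes were scarce. Of 10 measured, 4 were listed at 0 in both libraries and 1 was kept, Ear1, an eosinophil-associated ribonuclease. It was at 0.695 RPKM in the Brpf1-null library and 1.42 RPKM in the wild-type library, within 1.5-fold on the log2 scale with the pseudocount but past it, lower, after centring. Its relatives are near-identical copies, so their reads may be split. Il5ra, the alpha chain of the IL-5 receptor, was 2.65-fold higher (1.40 to 5.35) at 0.442 RPKM in Brpf1-null and 0.167 RPKM in wild-type cells. It rested on about 35 Brpf1-null and 14 wild-type reads. Siglec5 was 1.41-fold higher at 0.901 RPKM in Brpf1-null and 0.639 RPKM in wild-type cells. Ccr3 had about 6 Brpf1-null reads and was listed at 0 in the wild-type library. Ear2 and Ear6 had about 7 and 6 wild-type reads and were listed at 0 in the Brpf1-null library.

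Of 12 surface and cytokine genes of basophils and mast cells, 8 were kept, of which 2 were higher, 1 lower and 5 within 1.5-fold, with a median of 0.13. Itgb7, an integrin subunit that guides progenitors to mucosa, was 2.79-fold higher at 8.87 RPKM in the Brpf1-null library and 3.18 RPKM in the wild-type library. The chemokine genes Ccl3 and Ccl4 went apart: Ccl3 was 2.03-fold higher at 26.8 RPKM in Brpf1-null and 13.2 RPKM in wild-type cells, and Ccl4 was 1.53-fold lower at 19.5 RPKM in Brpf1-null and 29.9 RPKM in wild-type cells. Fcgr3, a receptor for IgG, was at 22.1 RPKM in Brpf1-null and 15.6 RPKM in wild-type cells. Cd200r3, a basophil marker, was at 1.53 RPKM in Brpf1-null and 1.85 RPKM in wild-type cells, within 1.5-fold. Il4 also lay within it, at 1.57 RPKM in Brpf1-null and 1.33 RPKM in wild-type cells. Of 9 enzymes of eicosanoid synthesis 6 were kept, with 1 higher, 0 lower and a median of 0.37. Ltc4s, which makes leukotriene C4, was 1.84-fold higher at 3.83 RPKM in Brpf1-null and 2.09 RPKM in wild-type cells, and it lay within 1.5-fold under centring, quantile normalization and removal of the GC trend. The most abundant of these genes lay within 1.5-fold, with Alox5ap at 294 RPKM in Brpf1-null and 233 RPKM in wild-type cells, Lta4h at 69.6 RPKM in Brpf1-null and 91.0 RPKM in wild-type cells and Ptgs1 at 20.97 RPKM in Brpf1-null and 14.9 RPKM in wild-type cells.

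Signalling genes downstream of the IgE receptor were well expressed, with its alpha and beta chains at or near 0. Fcer1g encodes the gamma chain, which is shared with IgG receptors of many myeloid cells, and was at 132 RPKM in the Brpf1-null library and 88.2 RPKM in the wild-type library. Of 14 kept genes of this pathway, 8 were higher, 2 lower and 4 within 1.5-fold, and the median was 0.67. Under centring, quantile normalization and removal of the GC trend, 6, 9 and 5 were higher and 2 were lower each time. Syk and Plcg1 lay within 1.5-fold after centring and, with Lat, after removal of the GC trend, and Fcer1g passed 1.5-fold higher under quantile normalization. The higher genes included the kinase Syk (1.60-fold), the adaptors Lat (1.81-fold), Lat2 (2.35-fold) and Grb2 (2.54-fold), the exchange factor Vav1 (1.80-fold) and the phospholipases Plcg1 (2.04-fold) and Plcg2 (2.01-fold). The lower genes were the kinase Btk (2.17-fold) and the adaptor Lcp2 (1.54-fold). These genes also act in other blood cells.

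**Figure D3:**
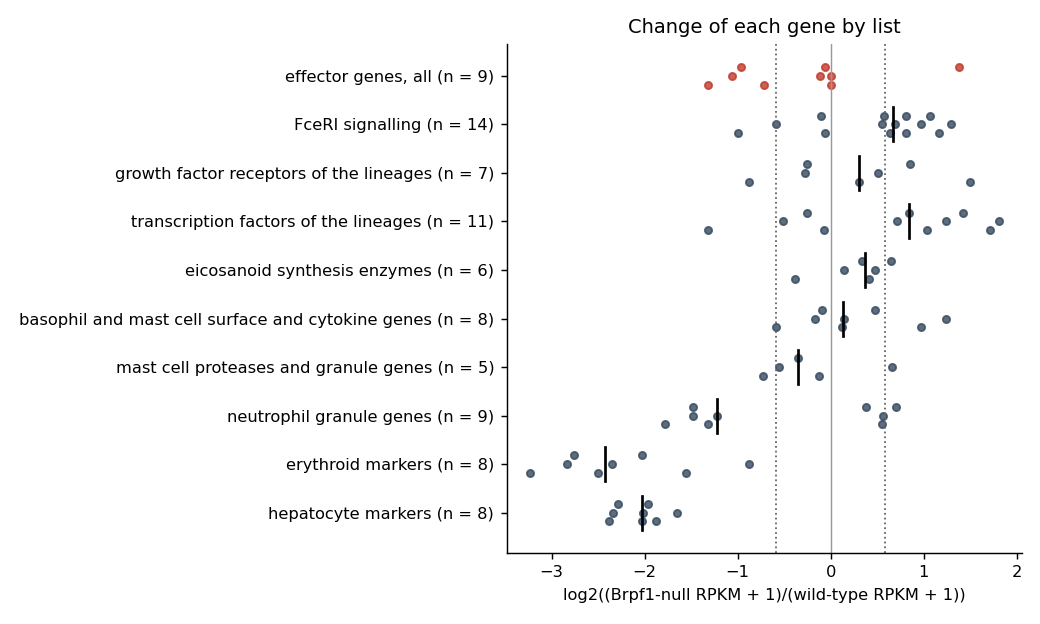
Change of each gene on the log2 scale with the pseudocount (x axis) for all 9 effectors and for the kept genes of other lists (rows), with dotted lines at 1.5-fold; each point is a gene and black bars are list medians. FceRI signalling and transcription factor genes lie mostly to the right, with medians of 0.67 and 0.85, and erythroid and hepatocyte markers to the left, at −2.42 and −2.03.

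Receptors for growth factors of these lineages split. Of 7 kept, 2 were higher, 1 was lower and 4 lay within 1.5-fold, with a median of 0.31. Csf2rb, the shared beta chain of the IL-3, IL-5 and GM-CSF receptors, was 3.03-fold higher (2.81 to 3.26) at 26.1 RPKM in the Brpf1-null library and 8.62 RPKM in the wild-type library. Csf2rb2, its near-identical mouse paralog that serves IL-3 alone, was 2.64-fold higher at 2.58 RPKM in Brpf1-null and 0.979 RPKM in wild-type cells, and reads of the pair may be split. Kit, the stem cell factor receptor, lay within 1.5-fold. Epor, the erythropoietin receptor, was 2.08-fold lower at 3.49 RPKM in Brpf1-null and 7.28 RPKM in wild-type cells.

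Among 11 kept transcription factors of the lineages, 7 were higher and 1 was lower, with a median of 0.85. After removal of the GC trend 5 were higher and 2 lower, as Cebpb and Xbp1 lay within 1.5-fold and Gfi1 passed it as lower, and after centring 7 were higher and 2 lower, again with Gfi1. Gata1, which is needed for eosinophil, mast cell and erythroid development, was 2.73-fold lower (2.37 to 3.16) at 6.13 RPKM in the Brpf1-null library and 16.8 RPKM in the wild-type library. Gata2 was 1.23-fold lower (1.07 to 1.42), within 1.5-fold. The factors of the list that were not kept were all lower: Bhlhe40 4.35-fold, Zfpm1 2.95-fold, Cebpe 2.94-fold and Mitf 2.64-fold. They rested on about 7 to 16 reads in the Brpf1-null library and 20 to 74 in the wild-type library. Genes of other lists that were not kept went both ways, with Alox5, Il2rb and Il5ra among the higher ones. Higher genes were Stat5a (4.95-fold, 8.56 RPKM in Brpf1-null and 1.73 RPKM in wild-type cells) and Stat5b (2.83-fold), which act below IL-3 and IL-5 receptors, and Cebpa (3.64-fold, 6.36 RPKM in Brpf1-null and 1.75 RPKM in wild-type cells) and Cebpb (2.71-fold), C/EBP factors of granulocytes. Irf8, a factor of monocytes and dendritic cells, was 3.53-fold higher at 32.6 RPKM in Brpf1-null and 9.24 RPKM in wild-type cells. Id2, an inhibitor of helix-loop-helix factors, was 2.06-fold higher, and Xbp1, which eosinophil progenitors need, was 1.70-fold higher at 16.4 RPKM in Brpf1-null and 9.61 RPKM in wild-type cells.

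Markers of cells that share an effector were read beside them. Of 15 granzyme, perforin and inhibitor genes, 7 were listed at 0 in both libraries, and all 5 kept lay within 1.5-fold, with a median of 0.03. The median was −0.08 under centring and under quantile normalization, and 0.19 with the GC trend removed, when Ctsc passed 1.5-fold higher. The most abundant were Nkg7 at 53.4 RPKM in the Brpf1-null library and 38.4 RPKM in the wild-type library, Ctsc, a protease that activates granzymes, at 42.4 RPKM in Brpf1-null and 29.9 RPKM in wild-type cells, and Serpinb6b at 10.5 RPKM in Brpf1-null and 11.5 RPKM in wild-type cells. Of 10 T and NK cell markers 3 were listed at 0 in both and the sum was 6.06 RPKM in Brpf1-null and 2.90 RPKM in wild-type cells. The 1 kept, Klrd1, was 3.51-fold higher at 4.14 RPKM in Brpf1-null and 1.18 RPKM in wild-type cells, while Cd3g was at 0.792 RPKM in Brpf1-null and 0.537 RPKM in wild-type cells and Klrk1 at 0.527 RPKM in Brpf1-null and 0.669 RPKM in wild-type cells. Il2rb, not kept, was 5.05-fold higher (2.18 to 15.6) on about 30 Brpf1-null and 6 wild-type reads. Cd8a (3.29-fold, 0.626 to 32.5) and Klrb1c (1.13-fold, 0.537 to 2.40) were lower with intervals that include 1.

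Neutrophil granule genes went in both directions. Of 9 measured, 1 was higher, 5 were lower and 3 lay within 1.5-fold, with a median of −1.22 and sums of 848 RPKM in the Brpf1-null library and 667 RPKM in the wild-type library. Mpo, a gene of early granules, was 1.62-fold higher but within 1.5-fold once the GC trend was removed, and Prtn3, another, was at 213 RPKM in Brpf1-null and 144 RPKM in wild-type cells and passed 1.5-fold higher under quantile normalization. Ltf, which encodes lactoferrin of later granules, was at 2.61 RPKM in Brpf1-null and 1.77 RPKM in wild-type cells, within 1.5-fold. The lower genes were Camp 2.57-fold, Ngp 3.03-fold, Lcn2 5.89-fold, S100a8 3.54-fold and S100a9 2.57-fold, which encode proteins of later granules and of the cytosol. Of 7 kept macrophage markers, 2 were higher (Csf1r 3.47-fold and Cd68 1.55-fold), 3 were lower (Vcam1 4.11-fold, Timd4 5.25-fold and C1qa 3.76-fold) and 2 lay within 1.5-fold, among them C1qb at 16.2 RPKM in Brpf1-null and 24.1 RPKM in wild-type cells. Cd68 lay within 1.5-fold after centring and after removal of the GC trend, and C1qb passed 1.5-fold lower under those and under quantile normalization. The lower erythroid markers ranged from Epor at 2.08-fold to Hbb-b1 at 9.77-fold, and the lower hepatocyte markers from Alb at 3.18-fold to Apoh at 6.10-fold. The part of these other cells in the effector levels was not tested.

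**Figure D4:**
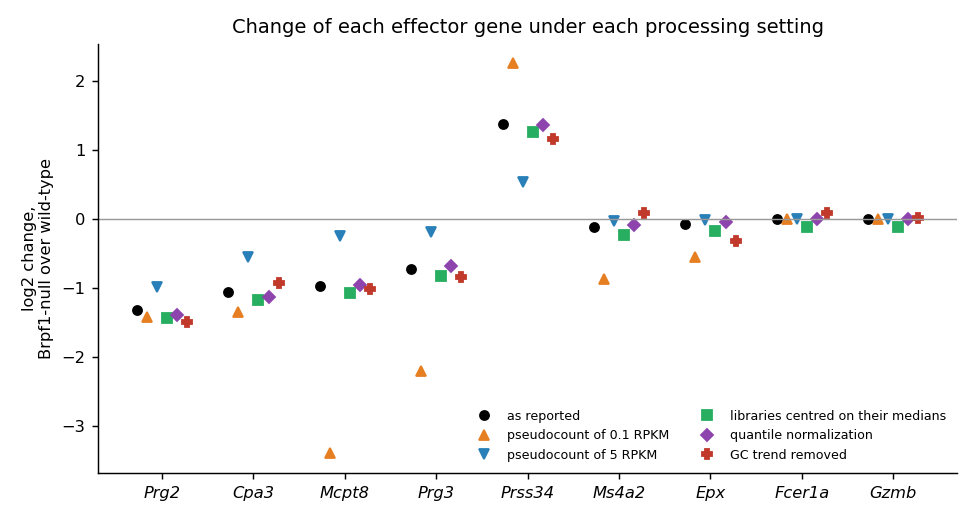
Log2 change (y axis, Brpf1-null over wild-type) of each effector gene under 6 processing settings (symbols). Prg2, Cpa3, Mcpt8 and Prg3 lie below 0 under every setting shown and Prss34 above 0, and the size varies most with the pseudocount for genes near 1 RPKM or below.

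A pseudocount cannot turn the sign of a change, so of these settings quantile normalization, centring and removal of the GC trend bear on direction, and centring moves all changes by only −0.11. Over the 6 settings plotted, the log2 change of Prss34 lay between 0.53 and 2.26, that of Prg2 between −1.49 and −0.99 and that of Cpa3 between −1.36 and −0.55. Mcpt8 ranged from −3.40 to −0.25 and Prg3 from −2.21 to −0.19, since their levels are close to or under the pseudocounts. Epx stayed between −0.56 and −0.01. Ms4a2, on 2 reads, was below 0 in 5 settings and above 0 after removal of the GC trend.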

How the data were processed

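Reads were aligned with TopHat to mm9, per the submitters' processing notes. No version, annotation or counting program is named in the sources used here. A table per pair was deposited by the authors, with RPKM in pair 1 and FPKM in pair 2, per the file headers. Of 20207 genes, 0 values differed between the tables. The authors also deposited the ratio of the wild-type value over the Brpf1-null value and its log2, opposite to the direction used here and not used.

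Library sizes were recovered from low RPKM of genes with 1 transcript length in GENCODE M21 (98.1% of symbols matched a length). With them 64.3% of 375 low values in the Brpf1-null library and 63.5% of 373 in the wild-type library were whole within 0.1 read, against 26.6% and 28.9% with sizes 5% higher. The sizes were picked to make that share large, so the lower shares at other sizes are no independent check. Intervals are exact Poisson for levels and Clopper-Pearson on read shares for folds. Only the fold interval was checked, on simulated Poisson reads with known library sizes and lengths. That check does not cover errors in recovered sizes or lengths, nor copies made by PCR. Log2 changes used a pseudocount of 1 RPKM. Genes whose mean reached 1 RPKM were kept (9380 of 20207).

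Members and lists were chosen with earlier results of these data known. Genes named are the 9 members and, in each list, every kept gene past 1.5-fold plus the 3 with the highest mean RPKM. Ly6a, Ltf, Gfi1, Gata2, Bhlhe40, Zfpm1, Cebpe, Mitf, Slamf1, Cd200r3, Il4, chromosomal neighbours and genes listed at 0 were named in addition, after their values were seen. Alox5, Alox15, Ptgs2, Il2rb, Cd8a, Klrb1c, Ccr3, Ear2 and Ear6 were also added after their values were seen. Some genes that the rule takes are left out of the text. Python 3.11.15, pandas 2.3.3, scipy 1.17.1 and statsmodels 0.14.6 were used.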

Additional observations from a re-analysis of the deposited data

How the results depend on the processing

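The number of members past 1.5-fold was 3 with the settings used. It was 1 with a pseudocount of 5 RPKM (Prg2), 1 with a mean of at least 5 RPKM (Prg2) and 5 with no filter on low values, when Mcpt8 and Prg3 enter. It stayed at 3 with a pseudocount of 0.1 RPKM, centring, quantile normalization, removal of the GC trend and a threshold of 2-fold. With a pseudocount of 5 RPKM, Prss34 (0.53), Cpa3 (−0.55), Mcpt8 (−0.25) and Prg3 (−0.19) no longer passed 1.5-fold on the log2 scale. The median log2 change over all 9 members was −0.12, and lay between −0.88 with a pseudocount of 0.1 RPKM and −0.02 with one of 5 RPKM. The fold intervals of all 4 members above 0 in both libraries excluded 1 with the recovered library sizes and with either size 5% higher. The share of all genes whose interval excludes 1 is not given here.

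Centring shifted all changes by −0.11 on the log2 scale. Of kept genes past 1.5-fold, 59.9% were higher with the values as deposited, 44.4% with centring, 52.3% with quantile normalization and 48.2% with the GC trend removed. No paired analysis was possible because the tables of both pairs hold the same values, and leaving out a replicate was not run for that reason. About 2 to 3 reads for Epx and Ms4a2, and 0 for Fcer1a and Gzmb, limit what can be said of them.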
